A study of Arabidopsis thaliana with 12 samples.

Results

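The genes described here are 42 nuclear protein-coding genes of Arabidopsis thaliana that were moderately abundant in captured poly(A) RNA of seedlings and had a large share of reads with the tag that marks an NAD+ cap. They were chosen by measured values. The mean level of all reads had to be 30 to under 100 CPM, a gene's reads scaled to a fixed library total, over the 3 libraries of captured poly(A) RNA treated with ADPRC, and the summed level of tagged reads over the summed level of all reads, the tagged share, had to reach 40% in the same libraries. Of 2634 nuclear genes in that range of level, 42 (1.59%) met the rule. The deposited tables hold 22337 gene IDs with a read, of which 22084 are nuclear.

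Most eukaryotic messenger RNAs begin with a methylated guanosine cap, but a part of them begins with nicotinamide adenine dinucleotide (NAD+), which an RNA polymerase can place at the first position of a transcript. In NAD tagSeq the enzyme adenosine diphosphate ribosylcyclase (ADPRC) exchanges the nicotinamide of such a cap for a group with a chemical handle, a synthetic tag RNA is joined to that handle, and single RNA molecules are read directly on a Nanopore instrument. Tagged molecules can be captured beforehand, and a reaction without ADPRC measures the background.

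All libraries came from 12-day-old Col-0 seedlings, a wild-type strain, grown at 23 °C with 16 h of light and 8 h of darkness and given no treatment. The poly(A) RNA gave 3 libraries with ADPRC and capture of tagged RNA (enriched), 3 enriched libraries without ADPRC, 3 libraries with ADPRC but no capture (unenriched) and 1 unenriched library without ADPRC. Enriched total RNA was read in 1 library with and 1 without ADPRC. No label ties a replicate to its own plants or culture, so p-values and SDs cover no more than the variation among these libraries, possibly technical.

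All reads numbered 1175516 to 1233999 per enriched library with ADPRC, 390009 to 948433 per enriched library without it, 378322 to 619122 per unenriched library with it and 434742 in the unenriched library without it. The total RNA libraries had 6479 reads with and 1237 without ADPRC. Over all genes 14.1% to 23.9% of reads were tagged in enriched libraries with ADPRC, 0.546% to 0.743% in unenriched libraries with ADPRC and 0.132% to 0.224% in enriched libraries without it. The unenriched library without ADPRC had 9 tagged reads. As markers of green tissue, RBCS1A, CAB1 and RCA lay between 6923 and 28974 CPM in the 10 poly(A) libraries, while the seed genes CRA1 and OLEO1 and the floral gene AG did not exceed 5.29 CPM.

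The 42 genes had a median tagged share of 44.6% (quartiles 41.9% and 47.5%) in the libraries that chose them, where the 2634 genes of the range had a median of 14.4%. These shares describe the choice and carry no test. In replicate 1 the median share was 51.1% for the 42 genes and 16.0% for the other genes in the range. In replicate 2 the medians were 44.96% and 15.4%, and in replicate 3 they were 38.0% and 10.0%. The share was therefore lowest in the library whose share over all genes was also lowest, and for 39 of the 42 genes replicate 1 lay above replicate 3. At a share of 40% or more stood 41 of the 42 genes in replicate 1, 34 in replicate 2 and 12 in replicate 3, and 10 in all 3 libraries.

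**Figure D1:**
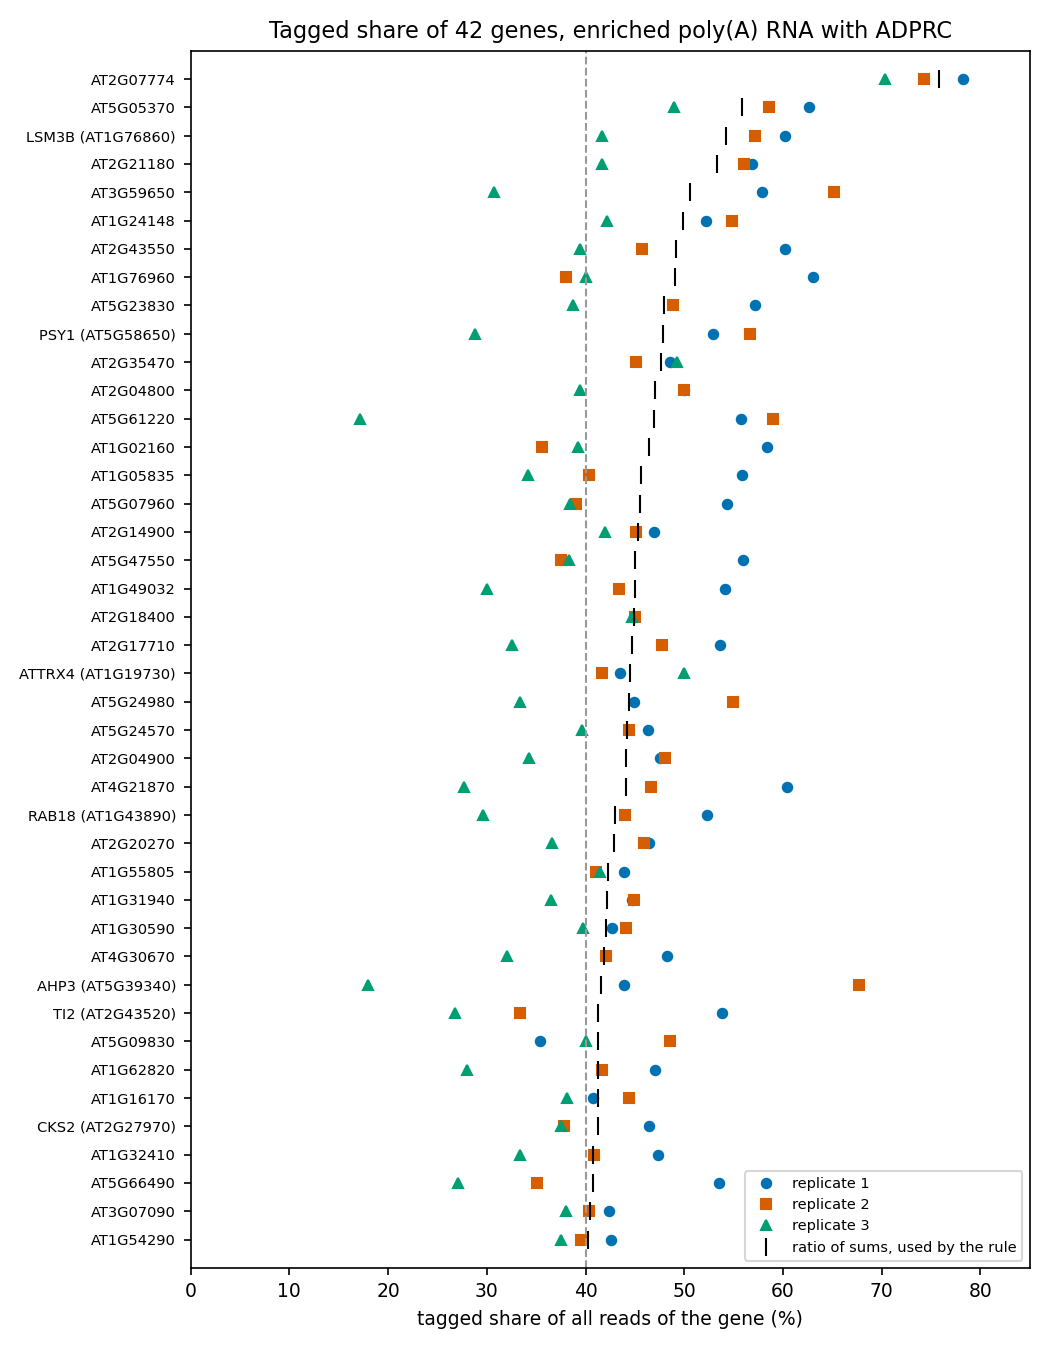
Tagged share (%) of all reads of each of the 42 genes in the 3 enriched poly(A) libraries with ADPRC, 1 symbol per replicate. The black tick is the ratio of sums used by the rule and the dashed line its limit of 40%. Replicate 3 lies left of replicate 1 for 39 of the 42 genes, and AT2G07774 stands apart at the top.

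Among genes at 100 CPM or more in the same libraries, 53 of 1388 (3.82%) had a share of 40% or more, so shares of this size were not confined to moderate levels. The rule cuts a continuous distribution. Just inside it stood AT1G54290 at 40.2%, AT3G07090 at 40.4% and AT5G66490 at 40.8%, and just outside AT3G23325 at 39.9%, CSD1 at 39.8% and ARFC1 at 39.7%. At the edges of level, AHP3 at 30.6 CPM and AT4G30670 at 96.8 CPM fell inside, and AT4G01897 at 29.9 CPM and AT3G08920 at 100.8 CPM outside, with shares of 69.8% and 40.05%. The 42 genes had 111 to 350 reads each over the 3 libraries, and the lower bound of the 95% Wilson interval of the share reached 40% for 10 of them. For 107 genes outside the rule the upper bound reached 40%. Intervals cover counting error only.

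The gene with the highest share was AT2G07774, which has no name in the annotation. Its share was 78.2%, 74.3% and 70.4% in replicates 1, 2 and 3 (106 of 140 reads, 95% interval 68.0% to 82.1%). No library overlapped with any library of the next gene, AT5G05370, at 62.7%, 58.6% and 49.0%. AT2G07774 lies in a stretch of chromosome 2 that carries a copy of mitochondrial DNA, so the assignment of its reads to the nuclear copy is uncertain.

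Among members with an annotated name, LSM3B (AT1G76860) had the highest share. It encodes a Sm-like protein of the complexes that act in mRNA decapping and splicing. Its share was 60.2%, 57.1% and 41.7% in replicates 1 to 3, from 144 of 266 reads, and its level of all reads was 87.6, 74.6 and 58.3 CPM. Both quantities were lowest in replicate 3, and the share stayed above 40% in each library.

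The 2 signalling genes with a name differed in how stable their shares were. PSY1 (AT5G58650) encodes the precursor of a secreted peptide with a sulfated tyrosine that promotes cell expansion, and its share was 52.9%, 56.7% and 28.8%. AHP3 (AT5G39340) encodes a phosphotransfer protein that relays the cytokinin signal from receptors to response regulators, and its share was 43.9%, 67.7% and 17.9%. AHP3 had the fewest reads of all members, 46 tagged of 111, and the widest spread between libraries, with a mean of 43.2% ± 24.9 (SD, n = 3).

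The shares of ATTRX4, BolA1 and BolA2 lay closer together across libraries than those of PSY1 and AHP3, with SDs of 4.38, 1.53 and 6.67. This was not particular to these genes. The SD over the 3 libraries was also small for other members, for instance 2.19 for AT3G07090 and 2.22 for AT1G30590. ATTRX4 (AT1G19730), a thioredoxin of the h type, which reduces disulfides in proteins, had 43.5%, 41.7% and 50%. It is the named gene whose replicate 3 was highest. BolA1 (AT1G55805), a homologue of the bacterial BolA proteins, which bind glutaredoxins, had 43.9%, 41.1% and 41.5%, and BolA2 (AT5G09830) had 35.4%, 48.5% and 40%. Replicate 1 of BolA2 was the only value of the 42 genes under 40% in that library.

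The remaining named members were RAB18 (AT1G43890), a small GTPase of membrane traffic also listed as RABC1, with 52.3%, 44.0% and 29.6%, and CKS2 (AT2G27970), a subunit that binds cyclin-dependent kinases, with 46.4%, 37.8% and 37.5%. TI2 (AT2G43520), a trypsin inhibitor, had 53.8%, 33.3% and 26.8%, so that its share passed 40% in replicate 1 alone. AT2G43550, with a share of 49.1% from 119 of 243 reads, lies on the same chromosome, with 3 genes between it and TI2.

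The other members have no name in the annotation and are given by ID. Among members without a name, after AT2G07774 and AT5G05370, the highest summed shares were 53.3% for AT2G21180, 50.6% for AT3G59650 and 49.9% for AT1G24148. AT2G43550 and AT1G76960 followed at 49.1% each, then AT5G23830 at 47.9%, AT2G35470 at 47.7% and AT2G04800 at 47.0%. AT5G61220, AT1G02160, AT1G05835, AT5G07960, AT2G14900 and AT5G47550 lay between 46.9% and 45.1%. AT1G49032, AT2G18400, AT2G17710, AT5G24980, AT5G24570, AT2G04900 and AT4G21870 lay between 45.04% and 44.1%, and AT2G20270, AT1G31940, AT1G30590 and AT4G30670 between 42.9% and 41.8%. AT1G62820, AT1G16170 and AT1G32410 lay at 41.2%, 41.2% and 40.8%. The steadiest of them was AT2G18400, at 44.9%, 45% and 44.7% in the 3 replicates, and the least steady was AT5G61220, at 55.7%, 59.0% and 17.1%.

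Choosing genes on 2 of the libraries and reading their share in the third avoids using one value for both, but gives sets that differ from the members. Genes chosen on replicates 2 and 3 by the same rule numbered 26, and in replicate 1 their pooled share was 50.2%, against 18.9% for the other genes in the range. The 45 genes chosen without replicate 2 had 44.4% there, against 16.8% for the others. The 88 genes chosen without replicate 3 had 30.3% there, against 10.9% for the others and 45.7% in the libraries that chose them. The ratio to the other genes was thus 2.65, 2.64 and 2.78 in the left-out libraries. The gene's own share exceeded the upper quartile of the others for 26 of 26, 44 of 45 and 84 of 88 genes. Of these sets 21 of 26, 36 of 45 and 40 of 88 genes were members. The values therefore describe how the rule carries over to a left-out library. They are not a test of the members, since the rule used each of these libraries.

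The unenriched libraries with ADPRC were not used to choose the genes and were not subjected to capture, and a larger part of the reads of the 42 genes was tagged there than of the other genes of the range. The range of level was set in the enriched libraries with ADPRC, and in the unenriched libraries the 42 genes lay lower, at a median of 31.7, 32.3 and 27.7 CPM in replicates 1 to 3, against 44.9, 43.6 and 44.7 CPM for the others. Their pooled share was 3.39% in replicate 1 (17 of 501 reads), 1.71% in replicate 2 (15 of 875) and 1.46% in replicate 3 (11 of 753). The other 2592 genes of the range had 0.388%, 0.563% and 0.377%. The means were 2.19% ± 1.05 for the 42 genes and 0.442% ± 0.104 for the others (SD, n = 3 libraries each), and the share of the 42 genes was higher in 3 of 3 libraries, by 8.75, 3.05 and 3.88 times. The 95% intervals did not overlap in any library, for instance 0.818% to 2.60% for the 42 genes and 0.335% to 0.424% for the others in replicate 3.

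The excess was spread over many of the genes. At least 1 tagged unenriched read was seen for 30 of the 42 (71.4%), and for 703 of the 2592 others (27.1%). The part was larger among the others most like the members. It was 107 of the 188 others with a share of 30% to under 40% (56.9%), and 239 of the 520 others of up to 1500 bases (46.0%). Of the 42 genes, 12 had none, 21 had 1 read, 5 had 2 and 4 had 3, and none was tagged in all 3 libraries. The genes with 3 tagged reads were AT2G21180 (3 of 41 reads, 7.32%, interval 2.52% to 19.4%), AT2G04900 (3 of 61), PSY1 (3 of 70) and BolA1 (3 of 76). All 3 reads of AT2G21180 fell in replicate 1, and without that gene the mean share of the members was 2.03%. LSM3B, AT1G24148, AT2G43550, AT5G07960 and AT5G24570 had 2 tagged reads each.

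The 12 genes without a tagged unenriched read were AT1G76960, AT2G04800, AT5G61220, AT1G05835, AT2G14900, AT2G17710, AT5G24980, AT4G21870, AT1G31940, AHP3, BolA2 and AT1G16170. They had 21 to 54 reads each over the 3 unenriched libraries, so a count of 0 allows a wide range of shares: the upper 95% Wilson bound was 6.64% for AT2G14900 and 15.5% for AT2G04800. Unenriched shares of single members were not tested against each other.

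The 42 genes stood close to the genes just below the rule. The 188 genes of the same level with a share of 30% to under 40% had an unenriched pooled share of 1.41%, 1.82% and 1.19%. The 42 genes were 2.41, 0.940 and 1.23 times as high in replicates 1, 2 and 3, so they were higher in 2 of 3 libraries, and the mean difference was smaller than the spread of the 42 genes over replicates.

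Without ADPRC the 42 genes carried almost no tag. In enriched libraries without ADPRC 6 of their 2684 reads were tagged (0.224%, interval 0.102% to 0.487%), and for the other genes of the range 484 of 252895 (0.191%). The 6 reads belonged to AT2G07774, AT2G21180, AT2G43550, AT5G07960, AT1G62820 and AT1G32410, 1 read each. The unenriched library without ADPRC had 0 tagged of 593 reads, which allows a share of up to 0.506%. The total RNA library with ADPRC held 6 reads of the 42 genes, 0 of them tagged, and cannot inform on their share.

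**Figure D2:**
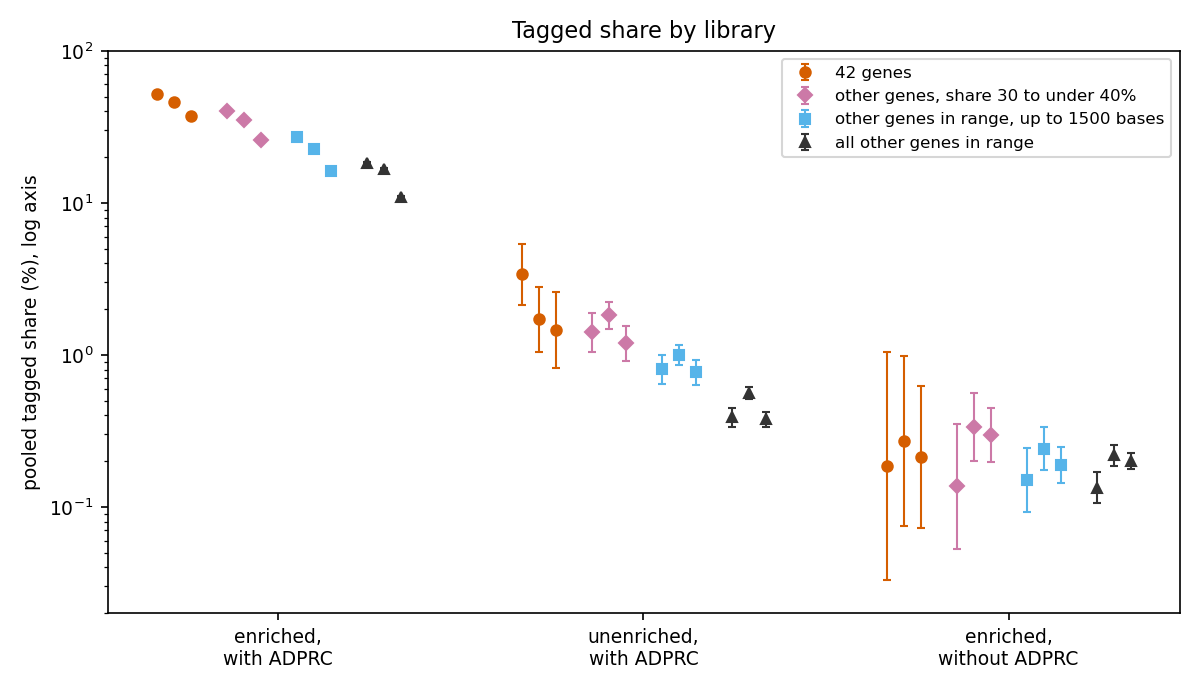
Pooled tagged share (%, log axis) of the 42 genes and of 3 sets of other genes at 30 to under 100 CPM, 1 point per library with its 95% Wilson interval, replicates 1 to 3 from left to right. In unenriched libraries with ADPRC the 42 genes lie at 1.46% to 3.39% and all other genes at 0.377% to 0.563%. In enriched libraries without ADPRC all sets lie between 0.134% and 0.334%.

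Tagged reads were also tested gene by gene with limma on log2(CPM + pseudocount), unenriched with ADPRC against enriched without ADPRC, 3 libraries each. Enrichment and ADPRC differ together in this comparison. Over all genes 596 had a tagged read in at least 3 libraries, and 29.5% of them were higher and 0.503% lower at a Benjamini-Hochberg adjusted p under 0.05. AT5G07960 was the only one of the 42 genes with enough libraries to be tested. It had 1, 1 and 0 tagged reads in unenriched libraries with ADPRC, and 0, 0 and 1 in enriched libraries without it. The log2 fold change was 0.50 ± 0.40 (SE) with a limma adjusted p of 0.386. So 0 members were called, and 0 had an unadjusted p under 0.05; edgeR and DESeq2 also called 0. At these counts the test cannot inform on the other 41.

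The 42 genes were shorter than the other genes of the range. Gene length, introns included, comes from the TAIR10.1 table, and the build that the submitters used is not given in the sources used here. The median length was 1172 bases for the 42 genes (quartiles 886 and 1389) and 2192 bases for the 2591 others with a length. Up to 1500 bases measured 35 of the 42 (83.3%) and 20.1% of the others. The shortest was AT2G43550 at 347 bases and the longest AT1G30590 at 5138 bases, the only member over 3000 bases.

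The tagged share moved with length across all genes of the range. In the libraries of the rule the median share was 24.0% for genes of up to 1000 bases, 21.7% to 1500 bases, 18.3% to 2000 bases, 12.6% to 3000 bases and 5.20% beyond. Spearman's rho between length and share was -0.62 over 2633 genes and -0.36 over the 42, as a description, since all genes share the same libraries. In the unenriched libraries, which did not choose the genes, the pooled share was 1.03% ± 0.218 in the shortest bin, 0.866% ± 0.0739, 0.547% ± 0.134 and 0.355% ± 0.115 in the middle bins and 0.161% ± 0.0544 in the longest (SD, n = 3). Of the 166 genes up to 1000 bases 15 were members, and of the 631 over 3000 bases 1 was.

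The difference from other genes was smaller among short genes. In unenriched libraries with ADPRC the 35 members of up to 1500 bases had a mean share of 2.28% ± 1.46, against 0.856% ± 0.126 for the 520 other genes of that length (SD, n = 3 each). The members were 4.95, 1.46 and 1.85 times as high in replicates 1 to 3. The intervals were apart in replicate 1 (2.49% to 6.27% for the members, 0.643% to 1.00% for the others). They overlapped in replicates 2 (0.818% to 2.60%, 0.857% to 1.17%) and 3 (0.749% to 2.68%, 0.636% to 0.924%). Without replicate 1 the mean share of the short members was 1.44%, against 0.884% for the other short genes. This comparison was added after the lengths had been seen, and the part of length in the result was not tested further.

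**Figure D3:**
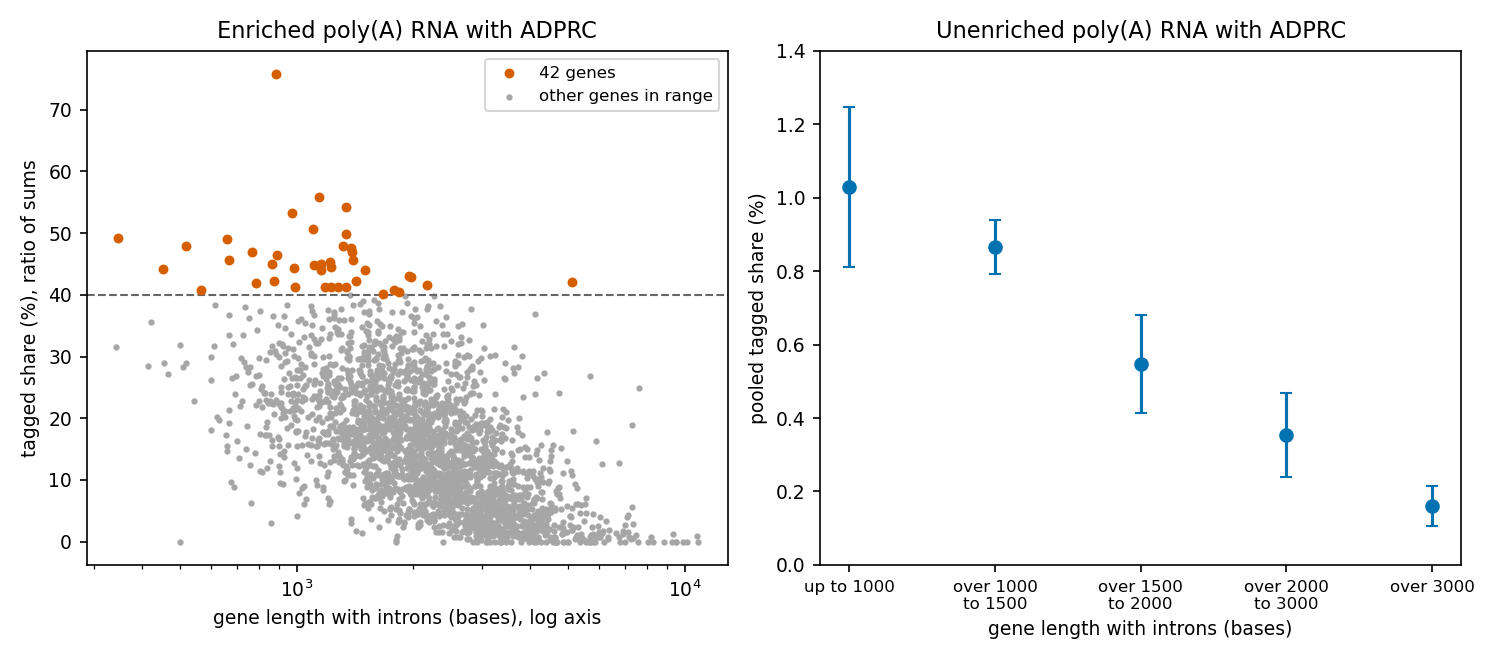
Left, tagged share (%, ratio of sums in enriched poly(A) RNA with ADPRC) against gene length in bases with introns (log axis), 1 point per gene at 30 to under 100 CPM, with the 42 genes in orange and the limit of 40% dashed. Right, pooled tagged share (%) in unenriched poly(A) RNA with ADPRC for all genes of the range in 5 bins of length, mean ± SD of 3 libraries. Most of the 42 genes lie at up to 1500 bases, and the unenriched share is highest in the shortest bin at 1.03%.

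In other respects the annotation tells little. All 42 genes are protein coding, as are 99.0% of the other genes of the range. A symbol was listed for 7 of the 42 (16.7%) and for 53.5% of the others, and BolA1 and BolA2 were named through synonyms. Chromosomes 1, 2 and 5 carry 15, 12 and 11 of the genes (35.7%, 28.6% and 26.2%, against 25.3%, 16.0% and 23.0% of the others). Chromosomes 3 and 4 carry 2 each (4.76% each, against 20.1% and 15.6% of the others). In the annotation 12 of the 42 (28.6%) overlap another gene of the deposited tables, near the 26.7% of the others. The only overlapping gene with a higher level was PSAE-2, a photosystem I subunit, at 631 CPM with a share of 14.7%, beside AT2G20270 at 72.8 CPM with 42.9%. Whether reads were assigned by strand is not given in the sources used here, so the values of overlapping genes are uncertain. Without the 12 genes the unenriched share of the others was 2.15%.

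Levels of the 42 genes differed between the poly(A) groups as follows. In enriched libraries with ADPRC the 42 genes had a median level of 51.4 CPM, which splits into 22.4 CPM tagged and 27.8 CPM untagged as medians of each part. The medians were 31.2 CPM in enriched libraries without ADPRC, 29.8 CPM in unenriched libraries with it and 31.1 CPM in the unenriched library without it. The level of all reads in enriched over unenriched libraries, both with ADPRC, had a median ratio of 1.63 (41 of 42 above 1), against 1.09 (1497 of 2592 above 1) for the other genes. The level of untagged reads in enriched libraries over that of all reads in unenriched libraries, both with ADPRC, had a median ratio of 0.932, against 0.923 for the others. The level and the share in the enriched libraries chose the genes, so these ratios are a description. All levels are in CPM with no correction for length, also where levels of different genes are set side by side.

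**Figure D4:**
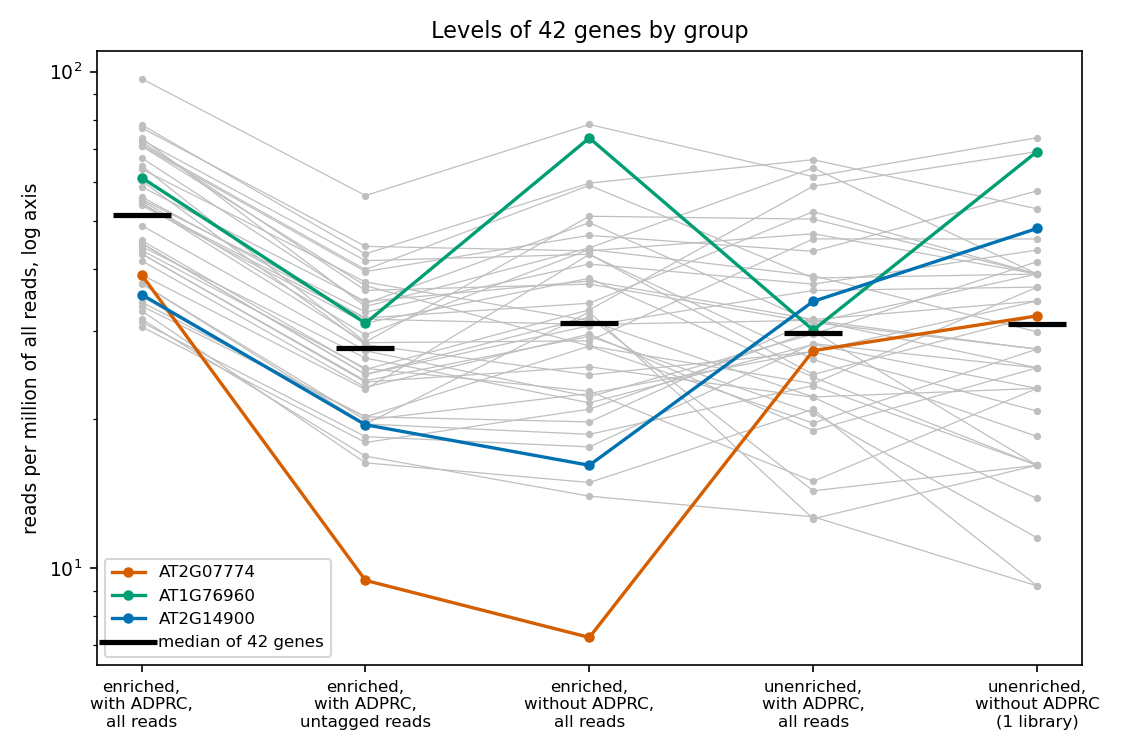
Level (CPM, log axis) of the 42 genes in the poly(A) groups, 1 line per gene through the group means, with the black bars as medians over the 42 genes. The second column holds only the untagged reads of the enriched group with ADPRC, and the other columns hold all reads. The unenriched group without ADPRC is 1 library. The median of all reads is 51.4 in enriched RNA with ADPRC and between 29.8 and 31.2 in the other groups. The median of the untagged reads is 27.8, and AT2G07774 is lowest in the enriched group without ADPRC.

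What capture does to the level of these genes when no tag can be made was tested in libraries that did not choose them, as enriched without ADPRC (3 libraries) against unenriched without ADPRC. The control was 1 library, whose own spread is unknown and was assumed to be that of the replicated groups. Of 18151 genes tested 1.46% were higher and 0.606% lower (limma, adjusted p under 0.05), and of the 42 genes 0 were higher and 1 was lower. The median log2 fold change was 0.11 over the 42 genes and 0.15 over all genes tested. An unadjusted p under 0.05 was seen for 7 of the 42 (16.7%), near the share of all genes tested (2310 of 18151, 12.7%).

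AT2G07774 was the gene called. It had 5.13, 13.4 and 3.16 CPM in enriched libraries without ADPRC, against 32.2 CPM in the unenriched library without it and 21.1, 30.7 and 30.4 CPM in unenriched libraries with it. The groups did not overlap, but the counts were low. In reads they were 2, 7 and 3, against 14 in the unenriched library without ADPRC and 8, 19 and 17 in those with it. Replicates 1 and 3 of the enriched libraries without ADPRC thus had 3 reads or fewer. The log2 fold change was -2.06 ± 0.58 (SE) with a limma adjusted p of 0.0475, close to the threshold. Over 15 alternative settings, of which DESeq2 gave no adjusted p, the call was lost in 5. It was lost with no filter on low values and without replicate 3 of the enriched libraries without ADPRC (-1.69). It was also lost without any 1 of the unenriched libraries with ADPRC. The lowest limma adjusted p, 0.00409, came from the other control described below, which is a different comparison. In enriched libraries with ADPRC the gene had 66.4, 28.7 and 21.9 CPM, of which 9.44 CPM on average were untagged.

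AT2G14900 came next, with 23.1, 11.5 and 13.7 CPM in enriched libraries without ADPRC, against 48.3 CPM in the unenriched library without it. Its log2 fold change was -1.53 ± 0.45 (SE) and missed the limma threshold with an adjusted p of 0.0648. In edgeR it passed, at an adjusted p of 0.0152.

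With the 3 unenriched libraries with ADPRC as the control instead, 4 of the 42 genes were called by limma, where 2.3% of all genes were higher and 1.83% lower. Capture and ADPRC differ together in this comparison, so it does not measure capture alone. AT2G07774 and AT2G14900 were lower, by -1.82 and -1.05 on the log2 scale (adjusted p 0.00409 and 0.0495). With the replicate number as a block the call of AT2G14900 was lost (limma adjusted p 0.0587). AT1G76960 was higher by 1.43 (adjusted p 0.00249), with 69.2, 80.6 and 70.6 CPM in enriched libraries without ADPRC and 10.6, 38.8 and 41.1 CPM in unenriched libraries with it. AT5G23830 was higher by 1.36 (adjusted p 0.0268), with 25.6, 32.6 and 40.1 CPM and 5.29, 14.5 and 17.9 CPM in the same groups. The unenriched library without ADPRC had 69.0 CPM of AT1G76960 and 16.1 CPM of AT5G23830.

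The ADPRC reaction itself was tested on the level of all reads as unenriched with ADPRC (3 libraries) against unenriched without it (1 library, with the same assumption on its spread). Of 18151 genes 0.022% were higher and 0% lower, and 0 of the 42 genes were called by limma, edgeR or DESeq2. The smallest unadjusted p was that of AT1G76960, with a log2 fold change of -1.34 ± 0.43 (SE) and a limma adjusted p of 0.60. It was the only one of the 42 with an unadjusted p under 0.05 (2.38%), where 970 of all genes tested had one (5.34%). The median log2 fold change of the 42 genes was -0.02, against 0.02 over all genes.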

How the data were processed

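Per the file headers, both deposited tables, 1 of tagged and 1 of all reads, are called TPM, but the values the authors deposited behave as CPM: the reads of a gene over the total reads of its library, tagged or not, with no correction for length. All 38774 tagged and 177709 all-read values above 0 (100%) were whole multiples of 1 read within 0.01 reads, so whole reads were recovered. The sources used here do not give the base caller, aligner, build, annotation, strand handling or the rule for calling a tag. One ID that names no gene (1 read) was left out.

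The members and lists were chosen with earlier results of these data known. All 42 members are named, by rule. Symbols, biotype, length and overlaps came from the TAIR10.1 table, which lists all 42. It gives no product names, so the planned functional classes could not be set, and sequences are not shown. Pooled shares are summed tagged over summed all reads with 95% Wilson intervals; a count of 0 allows up to 3 reads (2.43 to 7.93 CPM per poly(A) library).

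Tests used limma 3.58.1 in R 4.3.3 (lmFit and two-sided eBayes with a trend) on log2(CPM + 1.92) in the 7 poly(A) libraries that the rule did not use, for genes above 0 in at least 3 of them, with Benjamini-Hochberg adjustment over all genes tested; this scale understates changes of low genes. edgeR 4.0.16 and DESeq2 1.42.0 on whole reads were alternatives, and the code was tested on simulated data. No 2 replicates agreed within sampling noise (chi-square per gene 1.20 to 4.76). In all reads, enriched libraries without ADPRC and unenriched libraries with ADPRC each correlated best with their own number, but weakly. The correlations of their deviations were 0.144, 0.0432 and 0.145. The tests used no block for the number, except where a replicate block is named. Enriched libraries with and without ADPRC paired more strongly (0.468, 0.447 and 0.355), but are not tested against each other here.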

Additional observations from a re-analysis of the deposited data

How the results depend on the processing

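With a limit of 35% or 45% in place of 40% the rule took 102 or 19 genes, and chosen on 2 of the 3 libraries it took 26 to 88, of which 21 of the 26, 36 of 45 and 40 of 88 were among the 42. The unenriched share of the 42 genes was 1.59% to 2.55% leaving out a replicate and 2.03% to 2.19% without AT2G07774, AT2G21180 or overlapping genes, and the sets chosen by other limits or libraries had 1.79% to 2.69%. That of the other genes was 0.856% among genes of up to 1500 bases (added after seeing the data), against 0.442% over all. The number of the 42 genes called between enriched and unenriched RNA without ADPRC, 1 in the report, was 2 with a pseudocount 5 times larger, 2 for genes at a mean of 10 CPM or more, 2 with values centred on the median, 2 in edgeR, 0 without a filter, 0 in DESeq2 and 0 to 2 leaving out 1 replicate. With unenriched libraries with ADPRC as control it was 4, or 3 with the replicate block, which lost AT2G14900, and every sample then correlated best with its own number. The replicate block left the tagged comparison at 0 members.

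Over all genes 265 were higher and 110 lower between enriched and unenriched RNA without ADPRC, against 132 and 178 after centring, 179 and 115 after quantile normalization, 109 and 203 in edgeR, 58 and 128 in DESeq2, 4 and 5 without a filter and 417 and 332 with the other control. Centring moved the median of all genes in that comparison by over 0.1, to -0.05 from 0.15 on the log2 scale. The 176 higher and 3 lower genes in tagged reads became 111 and 1 with the larger pseudocount, 79 and 0 without a filter, 40 and 1 at a mean of 10 CPM, 8 and 9 after quantile normalization and 67 and 1 in DESeq2, and 58 to 177 higher leaving out 1 replicate. The 4 genes that differed with ADPRC became 0 under each scaling, filter and tool tried. Centring of tagged reads was not run, since too few genes were tagged in all 7 libraries. Member reads in the unenriched libraries, 21 to 107 per gene, limit what single genes can show.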
